A study of Mus musculus with 6 samples.

Results

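Galanin-expressing GABA neurons that also carried tyrosine hydroxylase transcripts, called Gal Th cells here, were examined in single-cell RNA sequencing of the mouse preoptic region. The rule took barcodes with at least 500 detected genes and at most 20% mitochondrial UMIs (unique molecular identifiers, each counting 1 captured transcript). A GABA neuron needed at least 4 UMIs of the neuronal genes Snap25 and Syt1 together and at least 3 of the GABA genes Gad1, Gad2 and Slc32a1 together. It also needed no UMI of the glutamate transporter gene Slc17a6 and at most 1 UMI of the glial and vascular genes Mog, Cx3cr1 and Cldn5 together. Of these, cells with at least 5 Gal UMIs, at least 1 Th UMI and no Calcr UMI were taken. There were 123 such cells among 12580 GABA neurons, 30824 barcodes past the limits on genes and mitochondrial UMIs, and 31299 barcodes in all. Their numbers were 27, 56 and 1 in female libraries 1, 2 and 3, and 27, 12 and 0 in male libraries 1, 2 and 3.

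Each of the 6 libraries came from a pool of 3 mice of 1 sex, aged 60 to 70 days and kept singly for 3 days before sampling, with no other treatment named and no strain or genotype given in the labels. Tissue from the preoptic region was dissociated with protease, sorted for live cells and captured with the 10x Chromium system. Replicate numbers name separate pools, so the library of pooled mice is the unit of the tests. The gene tests take their estimate of spread partly from other genes. A printed SE or p-value can thus understate how far the libraries of a single gene differ.

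Galanin is a neuropeptide of preoptic and hypothalamic neurons, where galanin neurons have been linked to sleep, body temperature and parental behaviour. Tyrosine hydroxylase, from the gene Th, makes L-DOPA from tyrosine, the rate-limiting step of catecholamine synthesis. Aromatic L-amino acid decarboxylase (Ddc) turns L-DOPA into dopamine, the vesicular monoamine transporter (Slc18a2) loads it into vesicles, and the dopamine transporter (Slc6a3) takes it back up after release. Calcr encodes the calcitonin receptor, and its absence from the rule's cells sets them apart from another galanin population of the region.

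Gal Th cells were compared with 3 other sets of GABA neurons from the same libraries. These were 389 galanin cells without Th (at least 5 Gal UMIs, no Th, no Calcr), 299 Th cells without galanin (at least 1 Th UMI, no Gal, no Calcr), and 11837 other GABA neurons (under 5 Gal UMIs), which include the Th cells. The same Gal Th cells enter each comparison, so the comparisons are not independent of one another and their results are set side by side only. Genes named for their largest changes were taken only with the same sign in every library tested. For them, that shared sign was fixed by the choice and is not further support. UMIs were summed per library and population, and the tests used the 4 libraries with at least 10 cells of both populations, female 1, female 2, male 1 and male 2. Levels are given as CPM, a gene's share of all UMIs of the population's cells in a library scaled to a common total, in the order female 1, female 2, male 1, male 2. Reads come from transcript ends, so levels are compared between populations and not between genes.

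Library totals ran from 1278429 UMIs in female 3 to 81162330 in female 2. The median Gal Th cell had 12221 UMIs and 4089 genes, against 10577 UMIs in galanin cells without Th, 9251 in Th cells without galanin and 7108 in other GABA neurons. A rule on raw UMIs picks deeper cells. Each gene comparison was repeated with the same populations thinned to 3000 UMIs per cell, which evens depth but not the choice of cells. Shallower cells were left out, over all libraries 0 Gal Th cells, 5 galanin cells without Th, 14 Th cells without galanin and 953 other GABA neurons. For the shares by sex, the limits on Gal, Th and Calcr were applied again to the thinned UMIs. A doublet caller marked 1 of the 123 Gal Th cells and 1002 of the 30824 barcodes (3.25%), and the marked cells were kept. Of all barcode sequences, 479 occurred in more than 1 library, and none was shared among Gal Th cells. Markers of glutamate neurons in Gal Th cells summed to between 0 and 5.31 CPM, with Slc17a7, Neurod6 and Sim1 at 0. Oligodendrocyte markers, all 8 detected, summed to 597 to 1595 CPM in Gal Th cells and 775 to 1566 CPM in galanin cells without Th.

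The cells were chosen by their UMIs of Gal, Th, Calcr and the genes of the GABA neuron rule, so these values are given as a description. Th UMIs per cell ran from 1 to 22 with a median of 2. There were 39 cells with 1 Th UMI, 45 with 2 to 4 and 39 with 5 or more. Gal UMIs ran from 5 to 306 with a median of 31, while galanin cells without Th had a median of 13. At the limits, 2 of the cells had exactly 5 Gal UMIs, and 13 GABA neurons with Th and no Calcr stayed outside with 4. Another 61 GABA neurons with Gal and Th were left outside for carrying Calcr, 20 of them by a single Calcr UMI. For scale, 0.6% of 6679 oligodendrocytes carried a Th UMI and 10.0% a Gal UMI, at a median of 4969 UMIs per cell. Such UMIs can come from RNA of other cells or from the oligodendrocyte itself, and the 2 were not told apart.

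The third marker proposed for these cells was Pnoc, which encodes the opioid-like peptide precursor prepronociceptin (chr14:65400673-65425472, minus strand, GRCm38). Pnoc UMIs were found in 41.5% of Gal Th cells, against 64.5% of galanin cells without Th, 32.8% of Th cells without galanin, 23.5% of other GABA neurons and 3.5% of oligodendrocytes. In Gal Th cells its level was 210, 133, 103 and 14.2 CPM, and in galanin cells without Th it was 233, 279, 224 and 351 CPM. Every library of Gal Th cells lay below every library of galanin cells without Th. The log2 difference was -1.05 (SE 0.18, adjusted p = 0.00019), which DESeq2 did not call. Against other GABA neurons it was 0.58 higher on the log2 scale (SE 0.14, adjusted p = 0.000664), with male 2 lower, and this fell to 0.26 (adjusted p = 0.449) without female 1. DESeq2, thinning, no library block, at least 2 Th UMIs required and all other GABA neurons as reference also ended that call.

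Th and Slc18a2 are genes of dopamine synthesis and storage. Th sets these cells apart by the rule alone and was not tested, while Slc18a2 was tested below. The stretches before their transcription starts are shown because both hold the same element. The 8-base sequence TGACGTCA, the full cyclic AMP response element, is its own reverse complement, so a search of 1 strand covers both. It occurs in 588 of 32851 RefSeq promoter windows (1.79%), each running from 250 bases before to 50 bases after a start. Capitals mark it in these 100-base stretches from the RefSeq table for GRCm38.p6, written 5′ to 3′ on the gene's strand. The Th stretch is chr7:142899996-142900095 on the minus strand and ends just before the start, with the element's first base 45 bases before the start. The Slc18a2 stretch is chr19:59260786-59260885 on the plus strand and runs 8 bases past the RefSeq start. The element's first base lies 4 bases before that start, and the element spans it. By the GENCODE coordinates the gene starts at 59260896, past the end of the stretch, so there the element lies wholly before the start.
Th: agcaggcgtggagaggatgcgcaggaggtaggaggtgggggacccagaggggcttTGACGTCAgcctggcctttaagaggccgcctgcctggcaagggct
Slc18a2: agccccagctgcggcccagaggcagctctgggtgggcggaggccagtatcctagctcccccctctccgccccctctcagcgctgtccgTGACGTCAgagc
The letters were not found in the windows of Gal, Ddc, Cck, Npy or Prok2. A match describes the letters and does not show binding.

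Of the other genes for dopamine handling, Slc18a2 (chr19:59260896-59296012, plus strand) was the one higher in Gal Th cells against each of the 3 other populations. It was found in 44.7% of Gal Th cells, 16.5% of galanin cells without Th, 10.7% of Th cells without galanin, 4.9% of other GABA neurons and 0.5% of oligodendrocytes. After thinning to 3000 UMIs the shares were 24.4%, 8.59%, 5.61%, 2.57% and 0.229%. Its order of populations was the same at both depths. The level in Gal Th cells was 67.8, 102, 72.3 and 71.0 CPM. It was 17.2, 24.1, 31.7 and 25.4 CPM in galanin cells without Th, and 18.5, 27.5, 15.7 and 18.6 CPM in Th cells without galanin. Other GABA neurons had 8.30, 13.0, 8.84 and 7.73 CPM. No library of these 3 other populations reached the lowest library of Gal Th cells. Library levels were not taken for galanin cells with Calcr, so these values do not set Gal Th cells apart from that population. The log2 differences were 1.79 (SE 0.21, adjusted p = 1.61e-07) against galanin cells without Th, 1.95 (SE 0.24, adjusted p = 1.47e-06) against Th cells without galanin, and 3.03 (SE 0.24, adjusted p = 3.35e-35) against other GABA neurons.

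Ddc, by contrast, did not separate Gal Th cells from galanin cells without Th, and it was also frequent in oligodendrocytes. A Ddc UMI was found in 45.5% of Gal Th cells and 40.4% of galanin cells without Th, but also in 26.2% of oligodendrocytes. At 3000 UMIs per cell the shares were 20.3%, 20.8% and 15.6%. Its level was 57.6, 70.4, 83.7 and 56.8 CPM in Gal Th cells and 102, 75.5, 89.2 and 61.8 CPM in galanin cells without Th, a log2 difference of -0.25 (SE 0.18, adjusted p = 0.64). Against other GABA neurons, at 51.7, 45.5, 38.2 and 38.9 CPM, Ddc was 0.63 higher (SE 0.18, adjusted p = 0.00883), a call lost by DESeq2, by thinning, and without female 2 or male 1. Ddc and Slc18a2 were each found in 56 and 55 of the 123 cells, and together in 29. Slc6a3 had no UMI in any of the 123 cells, which allows a share of cells with a UMI of up to 2.44%.

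Pcbd1 followed a different order. This gene, which encodes an enzyme that regenerates the tetrahydrobiopterin cofactor of tyrosine hydroxylase, was at 241, 218, 225 and 263 CPM in Gal Th cells. It stood at 203, 210, 193 and 182 CPM in galanin cells without Th, 82.2, 160, 67.9 and 76.2 CPM in Th cells without galanin, and 78.7, 105, 64.7 and 83.4 CPM in other GABA neurons. Both galanin populations thus lay above the other GABA neurons in every library. The log2 differences were 0.21 (SE 0.11, adjusted p = 0.492), 1.19 (SE 0.18, adjusted p = 5e-05) and 1.45 (SE 0.12, adjusted p = 2.91e-30) respectively. Gchfr, the feedback regulator of the first cofactor enzyme, and Maob, a monoamine oxidase, were higher than in other GABA neurons by 2.32 (SE 0.56, adjusted p = 0.000856) and 2.03 (SE 0.41, adjusted p = 3.34e-05). Both calls were lost without female 2. That of Gchfr was also lost without male 1 and by thinning, and that of Maob with at least 2 Th UMIs required. Of the dopamine and monoamine list as a whole, 2 of 10 genes tested were higher than in galanin cells without Th (Slc18a2 and Slc10a4, the latter lost with DESeq2 and without female 1). Against Th cells without galanin 2 of 9 were higher, and against other GABA neurons 5 of 13, with none lower in any of the 3 comparisons. The background shares of genes called higher were 1.86%, 3.71% and 4.38%. The list's median log2 differences were 0.25, -0.03 and 0.60, against 0.00166, -0.00368 and -0.07 over all genes tested.

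**Figure D1:**
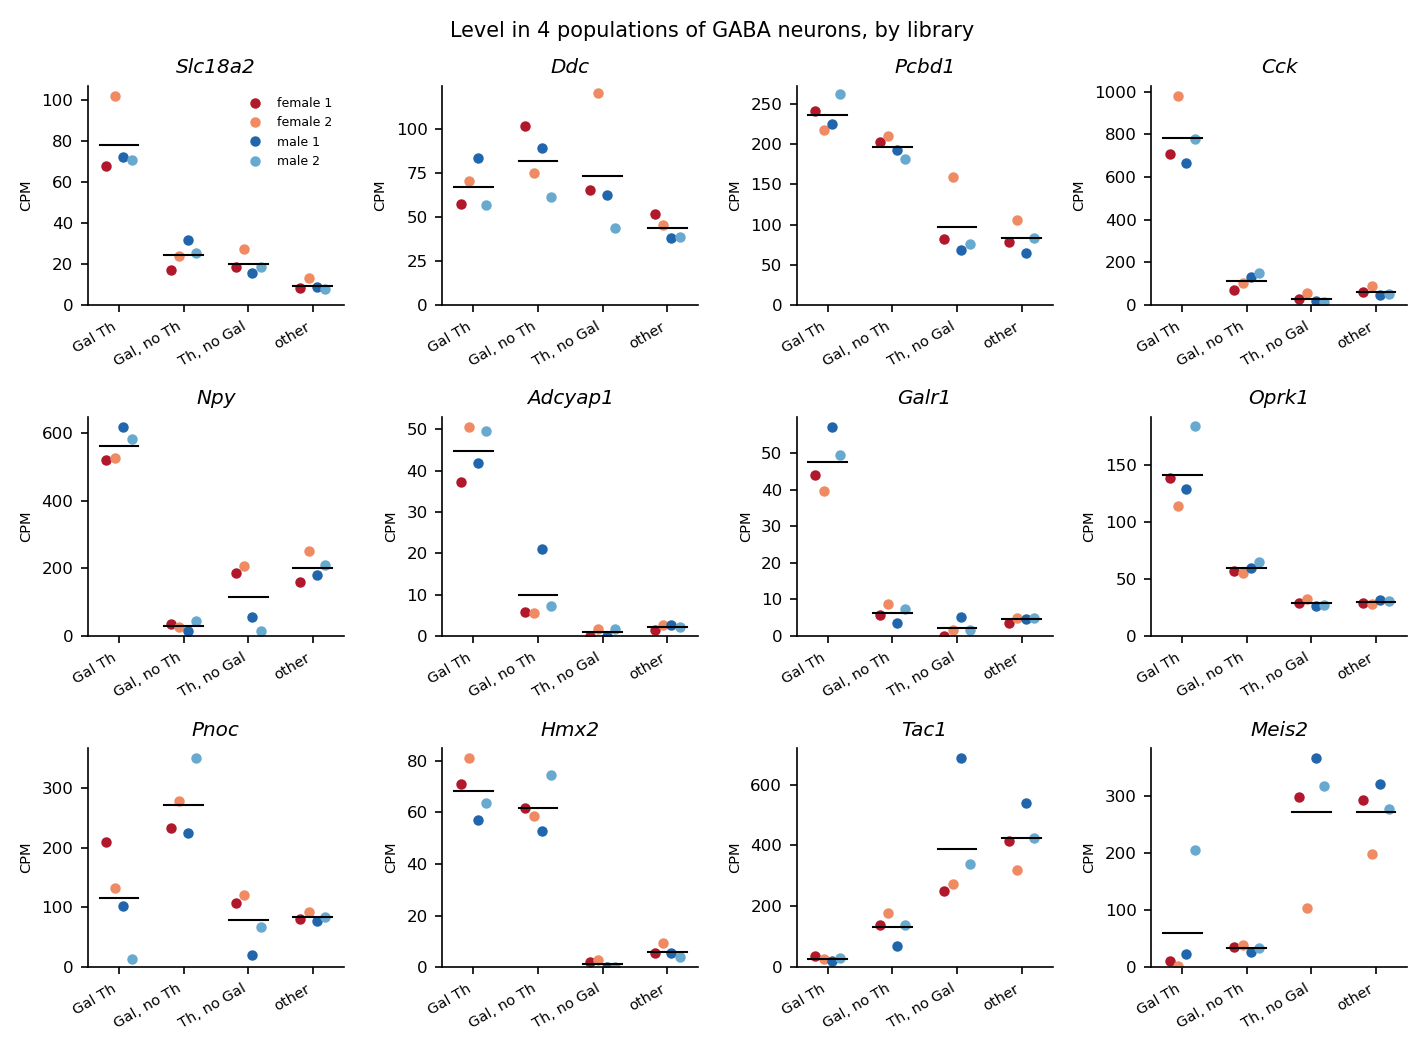
Level in CPM of named genes in each of the 4 populations, with 1 point per library (female 1, female 2, male 1, male 2) and a line at the mean. Slc18a2, Cck, Npy and Galr1 are higher in each library of Gal Th cells than in any library of the other populations, while Ddc overlaps between them.

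Against galanin cells without Th, Gal Th cells had more of the peptide genes Npy, Cck, Prok2, Adcyap1 and Pdyn and less of Tac2, Vip, Tac1 and Pnoc. The receptor genes Galr1, Oprk1 and Htr2c were higher as well. The transcription factor genes Hmx2 and Hmx3 gave no call between these 2 galanin populations. Of 8425 genes tested, 261 passed an adjusted p of 0.05 (3.1%), 157 of them higher (1.86%) and 104 lower (1.23%). DESeq2 called 66, with 51 higher and 15 lower, and 1009 genes had an unadjusted p under 0.05. Without female 2, the library with the most cells, 123 genes were called, and after thinning 57.

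Neuropeptide genes formed the list with many calls in both directions, 7 higher and 5 lower of 17 tested. Over all genes tested, 1.86% were higher and 1.23% lower. The list's median log2 difference was 0.44, against 0.00166 over all genes tested. Npy, which encodes neuropeptide Y (chr6:49822710-49829507, plus strand), was at 519, 526, 617 and 582 CPM in Gal Th cells and at 34.5, 27.7, 15.3 and 45.4 CPM in galanin cells without Th. Cck, which encodes cholecystokinin (chr9:121489824-121495694, minus strand), was at 709, 978, 666 and 781 CPM against 70.4, 105, 129 and 149 CPM. Both genes were several times higher in each of the 4 libraries, with no overlap. The log2 differences were 4.25 for Npy (SE 0.15, adjusted p = 5.46e-23) and 2.88 for Cck (SE 0.12, adjusted p = 4.42e-21).

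Prok2, the precursor of the secreted signal prokineticin 2, was at 54.2, 125, 137 and 35.5 CPM against 12.9, 17.5, 29.3 and 3.63 CPM. Adcyap1, the precursor of the peptide PACAP, was at 37.3, 50.4, 41.9 and 49.7 CPM against 5.74, 5.65, 21.1 and 7.27 CPM. Pdyn, the precursor of the dynorphin opioids, was at 98.3, 37.2, 15.2 and 49.7 CPM against 7.18, 10.8, 11.7 and 3.63 CPM. Each of the 3 was higher in every library, as their choice required, Prok2 and Pdyn with wide spread among Gal Th libraries. Their log2 differences were 2.55 (SE 0.22, adjusted p = 6.51e-11), 2.33 (SE 0.35, adjusted p = 1.22e-05) and 2.25 (SE 0.36, adjusted p = 4.55e-05).

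On the lower side, Tac2, which encodes neurokinin B, was at 23.7, 6.64, 57.1 and 0 CPM in Gal Th cells against 155, 207, 110 and 227 CPM. Vip, vasoactive intestinal peptide, was at 13.6, 6.64, 11.4 and 0 CPM against 91.9, 63.1, 42.3 and 30.9 CPM. Tac1, the precursor of substance P, was at 37.3, 25.2, 19.0 and 28.4 CPM against 138, 176, 70.4 and 138 CPM. None of these 3 overlapped between the populations. The log2 differences were -3.21 (SE 0.30, adjusted p = 8.76e-10; not called by DESeq2), -2.87 (SE 0.32, adjusted p = 4.45e-08) and -2.40 (SE 0.20, adjusted p = 5.5e-11). The neurotensin gene Nts, chosen after its values were seen, was at 770, 258, 324 and 128 CPM against 939, 934, 938 and 747 CPM (log2 difference -1.34, SE 0.14, adjusted p = 2.46e-08; not called by DESeq2).

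Among receptors, the galanin receptor gene Galr1 was at 44.1, 39.8, 57.1 and 49.7 CPM in Gal Th cells and 5.74, 8.73, 3.52 and 7.27 CPM in galanin cells without Th. It was found in 29.3% of Gal Th cells, 5.7% of galanin cells without Th and 0.3% of oligodendrocytes. The cells with galanin and Th thus carried more of a receptor for galanin itself, by 2.71 on the log2 scale (SE 0.36, adjusted p = 1.1e-06). Galr2, another galanin receptor gene, had no UMI in Gal Th cells. Oprk1, the kappa opioid receptor for dynorphins, was at 139, 114, 129 and 184 CPM against 57.4, 54.9, 59.9 and 65.4 CPM (log2 difference 1.18, SE 0.15, adjusted p = 1.01e-06). Htr2c, a serotonin receptor, was at 136, 161, 129 and 199 CPM against 63.2, 78.5, 73.9 and 107 CPM (0.98, SE 0.14, adjusted p = 4.74e-06). Both receptors were higher without overlap.

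Ngfr, the p75 neurotrophin receptor, was at 64.4, 30.5, 15.2 and 7.10 CPM against 0, 3.08, 1.17 and 0 CPM (4.02, SE 0.58, adjusted p = 6.43e-06). Brs3, an orphan receptor of the bombesin family, had 3 UMIs in Gal Th cells and 82 in galanin cells without Th, a 9.81-fold lower level with a 95% counting interval of 3.24 to 48.5. Counting intervals, here and below, take each UMI as independent and leave out the spread between cells and libraries. DESeq2 did not call Brs3. Of 8 peptide receptor genes tested, Rxfp3 was called higher (2.60, SE 0.73, adjusted p = 0.0387), a call that was lost by DESeq2 and without female 1. Of 11 hormone receptor genes tested, the prolactin receptor Prlr was lower (-0.55, SE 0.14, adjusted p = 0.0192) and 10 gave no call. The Prlr difference was -0.31 without female 2 and no longer passed. DESeq2, thinning and the fit with no library block also ended the Prlr call. Over all genes tested, 1.86% were called higher and 1.23% lower.

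Transcription factor genes of forebrain neurons were higher in 13 cases and lower in 4 of 50 tested, with a median log2 difference of 0.26. The shares over all genes were 1.86% and 1.23%. Npas1 was at 71.2, 50.4, 19.0 and 7.10 CPM against 5.74, 4.62, 8.22 and 1.82 CPM (2.94, SE 0.40, adjusted p = 2.21e-06). Npas1 was higher in each library, as its choice required, with a wide spread among Gal Th libraries. Dlx6os1, an antisense transcript at a Dlx locus that marks GABA neurons, was at 64.4, 65.0, 83.7 and 85.1 CPM against 15.8, 24.1, 15.3 and 23.6 CPM (1.80, SE 0.24, adjusted p = 1.1e-06); it may share reads with the gene it overlaps, and thinning ended the call. Zfhx3, a factor known from the circadian system, was at 91.5, 85.0, 68.5 and 78.1 CPM against 165, 166, 188 and 183 CPM (-1.07, SE 0.15, adjusted p = 2.57e-06). The retinoic acid binding protein gene Crabp1 was at 27.1, 86.3, 68.5 and 106 CPM against 0, 3.59, 8.22 and 1.82 CPM (4.28, SE 0.35, adjusted p = 3.7e-11). It was higher than in galanin cells without Th in all 4 libraries, as its choice required.

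Genes of peptide processing were called 5 times higher and 2 times lower of 22 tested, with a list median of 0.07. The shares over all genes were 1.86% and 1.23%. Pcsk2, a convertase that cleaves peptide precursors, was at 139, 194, 247 and 121 CPM against 66.1, 77.5, 70.4 and 116 CPM (1.22, SE 0.16, adjusted p = 1.01e-06). Resp18, a secretory granule protein gene, was at 2828, 3333, 3468 and 2526 CPM against 2368, 2404, 2275 and 1753 CPM (0.46, SE 0.06, adjusted p = 7.55e-07). Pcsk2 and Resp18 were higher in every library, Pcsk2 by little in male 2. Genes for GABA and glutamate handling gave no call among 12 tested. Ionotropic receptor subunits gave 1 among 29, the lower glycine receptor subunit Glra2 (-0.87, SE 0.20, adjusted p = 0.00682). The Glra2 call was lost without female 2, by DESeq2, with no library block, with at least 10 Gal UMIs required and with a reference of any Calcr. Of 37 channel genes, the calcium channel subunit Cacna2d3 (1.67, SE 0.33, adjusted p = 0.000955) and Trpc5 (0.79, SE 0.18, adjusted p = 0.00682) were higher. The Trpc5 call was lost without female 2 or male 1, by DESeq2, by thinning and with at least 10 Gal UMIs required. The counts for receptor subunits and channels are near the 3.1% called among all genes.

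Synaptic identity genes were higher in 3 and lower in 6 of 18 tested, against 1.86% and 1.23% of all genes. Synpr, a synaptic vesicle protein gene, was at 122, 204, 187 and 255 CPM against 76.1, 73.4, 79.8 and 79.9 CPM (1.31, SE 0.14, adjusted p = 3.27e-08). Cbln2, which encodes a secreted synapse organiser, was at 0, 13.3, 0 and 7.10 CPM against 40.2, 66.2, 39.9 and 79.9 CPM (-2.92, SE 0.35, adjusted p = 2.98e-07; -4.83 without female 2). C1ql3, a related synaptic protein gene, was at 23.7, 19.9, 22.8 and 35.5 CPM against 71.8, 83.7, 45.8 and 107 CPM (-1.73, SE 0.23, adjusted p = 1.75e-06; lost by thinning). Synpr was thus the higher and Cbln2 and C1ql3 the lower of these, each without overlap.

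Of 26 early response genes tested, 7 were higher and none lower, with a list median of 0.39. The shares over all genes were 1.86% and 1.23%. Egr4 was at 30.5, 166, 45.7 and 0 CPM against 20.1, 28.7, 15.3 and 5.45 CPM (2.06, SE 0.25, adjusted p = 3.1e-07), and differed by 0.94 without female 2, where the call was lost. Rrad was at 64.4, 202, 129 and 135 CPM against 40.2, 95.5, 38.7 and 49.0 CPM (1.19, SE 0.16, adjusted p = 1.36e-06). Rrad was higher in each of the 4 libraries. Among Gal Th cells 22 of 123, 14 of them in female 2, had 3 or more UMIs of Rrad and Gem together, and among galanin cells without Th 34 of 389 had. Without such cells in either population 205 genes were called. Egr4 and Rrad, which itself set this limit, were not among them, and DESeq2 did not call Egr4. The part of dissociation in these values was not tested.

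**Figure D2:**
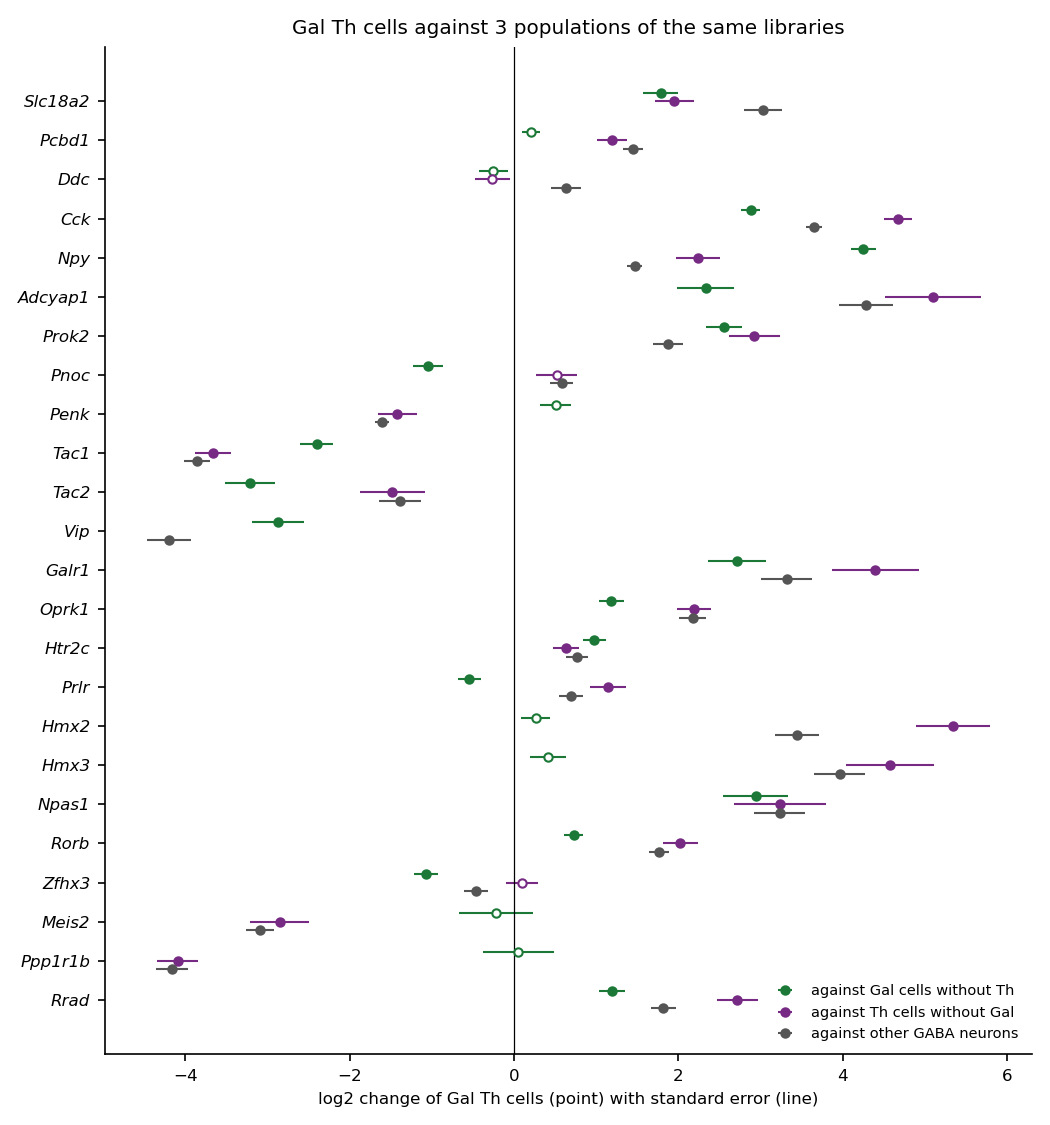
Log2 difference of named genes between Gal Th cells and each of the 3 other populations, with bars of 1 SE. Filled points passed an adjusted p of 0.05, open points did not, and a gene that was not tested in a comparison has no point there. Npy, Cck, Galr1 and Slc18a2 lie to the right of 0 in all 3 comparisons, and Ddc lies between -0.26 and 0.63.

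Against Th cells without galanin, the largest differences were in Hmx2, Adcyap1, Cck, Hmx3 and Galr1, all higher in Gal Th cells. Genes known from striatal projection neurons, Ppp1r1b, Adora2a, Gpr6 and Tac1, were lower. Of 7409 genes tested, 554 were called (7.48%), 275 higher (3.71%) and 279 lower (3.77%), and DESeq2 called 178. A Th UMI was also found in 26.4% of the 231 galanin cells with Calcr, which enter neither side.

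Hmx2 and Hmx3 are neighbouring homeobox genes of hypothalamic development (chr7:131548773-131558014 and chr7:131542867-131544925, both plus strand). Hmx2 was at 71.2, 81.0, 57.1 and 63.9 CPM in Gal Th cells and at 2.05, 2.66, 0 and 0 CPM in Th cells without galanin (5.34, SE 0.45, adjusted p = 1.87e-09). Hmx3 was at 50.9, 57.1, 49.5 and 35.5 CPM against 0, 4.43, 0 and 0 CPM (4.57, SE 0.53, adjusted p = 6.69e-07), and without female 2 every reference library is at 0. A Hmx2 UMI was found in 52.8% of Gal Th cells, 37.5% of galanin cells without Th, 56.3% of galanin cells with Calcr, 1.3% of Th cells without galanin, 3.0% of other GABA neurons and 0.4% of oligodendrocytes. Hmx2 was thus frequent in each of the 3 galanin populations and rare in Th cells without galanin. Galanin cells without Th had Hmx2 at 61.7, 58.5, 52.8 and 74.5 CPM, a log2 difference of 0.26 (SE 0.18, adjusted p = 0.631). In single Gal Th cells, Hmx2 was found in 65, Hmx3 in 52 and both in 40.

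Peptide genes separated the 2 Th populations too, with 6 higher and 4 lower of 14 tested (list median -0.03, against -0.00368 over all genes). Over all genes tested, 3.71% were higher and 3.77% lower. Cck was at 28.8, 55.0, 18.3 and 11.9 CPM in Th cells without galanin (log2 difference 4.67, SE 0.17, adjusted p = 1.49e-17). Npy was at 187, 206, 54.8 and 13.6 CPM there (2.24, SE 0.27, adjusted p = 1.17e-06). Neither gene's libraries overlapped with those of Gal Th cells. Adcyap1 had 67 UMIs in Gal Th cells and 3 in Th cells without galanin, a 39.8-fold higher level with a 95% counting interval of 13.0 to 198. Penk, the enkephalin precursor, was at 200, 402, 87.5 and 383 CPM against 939, 498, 961 and 720 CPM (-1.42, SE 0.24, adjusted p = 0.000163; -2.14 without female 2 and not called by DESeq2). Tac1 was at 251, 274, 687 and 337 CPM in Th cells without galanin (-3.66, SE 0.22, adjusted p = 1.26e-12).

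Receptor genes went both ways against Th cells without galanin. Of 4 peptide receptor genes tested 1 was higher and 1 lower, and of 10 hormone receptor genes 2 were higher and 1 lower. Of 28 ionotropic receptor subunits none was higher and 4 were lower. The shares over all genes were 3.71% and 3.77%. Galr1 was at 0, 1.77, 5.22 and 1.69 CPM in Th cells without galanin (4.40, SE 0.53, adjusted p = 1.22e-06) and Oprk1 at 28.8, 32.8, 26.1 and 27.1 CPM (2.20, SE 0.21, adjusted p = 1.65e-08). Prlr was at 163, 82.3, 126 and 135 CPM in Gal Th cells against 51.4, 63.9, 49.6 and 37.3 CPM (1.14, SE 0.22, adjusted p = 0.000693). Galr1, Oprk1 and Prlr were higher in every library. Rxrg, a retinoid X receptor gene, was lower, at 13.6, 9.29, 11.4 and 7.10 CPM against 49.3, 30.1, 67.9 and 47.4 CPM (-2.02, SE 0.35, adjusted p = 0.000268).

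Transcription factor genes were split, with 13 higher and 15 lower of 55 tested, against 3.71% and 3.77% of all genes. Dlx1, a factor of forebrain GABA neurons, was at 200, 199, 209 and 170 CPM against 49.3, 70.9, 60.1 and 64.4 CPM (1.66, SE 0.17, adjusted p = 6.79e-08). Rorb, a nuclear receptor gene, was at 271, 271, 217 and 177 CPM against 111, 78.0, 18.3 and 22.0 CPM (2.02, SE 0.21, adjusted p = 1.43e-07). Dlx1 and Rorb did not overlap between the populations.

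Meis2 was low in 3 Gal Th libraries at 10.2, 2.65 and 22.8 CPM but at 206 CPM in male 2, against 298, 104, 366 and 317 CPM. Its difference was -2.85 (SE 0.36, adjusted p = 2.07e-06), and -4.54 without male 2. The 5 cells with the most held 92.5% of the Meis2 UMIs of Gal Th cells. Nr4a2, a factor of midbrain dopamine neurons, had 3 UMIs in Gal Th cells and 64 in Th cells without galanin, a 12-fold lower level with a 95% counting interval of 3.92 to 59.6.

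Striatal genes gave 3 lower and none higher of 5 tested, against 3.77% and 3.71% of all genes. Ppp1r1b, which encodes the dopamine-regulated phosphatase inhibitor DARPP-32, was at 3.39, 13.3, 30.5 and 21.3 CPM in Gal Th cells against 364, 129, 512 and 313 CPM (-4.09, SE 0.25, adjusted p = 1.52e-12). Adora2a, an adenosine receptor gene, had 3 UMIs in Gal Th cells and 84 in Th cells without galanin, a 15.7-fold lower level with a 95% counting interval of 5.2 to 77.7. Summed striatal markers were at 114 to 228 CPM in Gal Th cells, 114 to 145 CPM in galanin cells without Th, 333 to 914 CPM in Th cells without galanin and 484 to 857 CPM in other GABA neurons. The part of striatal cells within the 2 latter populations in these differences was not tested.

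Other GABA neurons formed a wide reference, and Gal Th cells differed from them in 1424 of 13730 genes tested (10.4%), 602 higher (4.38%) and 822 lower (5.99%). DESeq2 called 767, of which 453 were higher and 314 lower, so the balance of directions turned with the tool. Apart from genes named above, the higher ones included Apoc3, Insm2 and Fam46a, and the lower ones Avp, Vip and Crym. The median log2 difference over all genes was -0.07.

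Adcyap1 was at 1.41, 2.73, 2.65 and 2.22 CPM in other GABA neurons, 4.28 below Gal Th cells on the log2 scale (SE 0.33, adjusted p = 6.67e-36). Apoc3, an apolipoprotein gene, was at 125, 59.7, 64.7 and 35.5 CPM in Gal Th cells against 3.62, 4.32, 4.0 and 2.33 CPM (4.23, SE 0.27, adjusted p = 4.67e-51). Insm2, a zinc finger factor of the insulinoma-associated family, was at 37.3, 27.9, 30.5 and 35.5 CPM against 4.18, 2.94, 3.07 and 2.65 CPM (3.29, SE 0.36, adjusted p = 8.76e-18). Apoc3 and Insm2 were both several times higher in each library. Avp, the vasopressin gene, was at 27.1, 70.4, 45.7 and 7.10 CPM against 899, 1398, 335 and 343 CPM (-4.27, SE 0.14, adjusted p = 4.63e-202). The size of the Avp difference varied more between these libraries than its SE shows.

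Over all genes tested, 4.38% were higher and 5.99% lower, the background for the lists here. Neuropeptide genes were higher in 8 and lower in 9 of 30 tested. Peptide receptor genes were higher in 2 and lower in 3 of 41, near the background. Of 84 transcription factor genes 14 were higher and 30 lower, and of 35 ionotropic receptor subunits none was higher and 10 were lower. Grin2a, an NMDA receptor subunit gene, was at 13.6, 19.9, 15.2 and 7.10 CPM against 49.96, 46.5, 53.5 and 54.1 CPM (-1.59, SE 0.27, adjusted p = 1.45e-07). Peptide processing genes were higher in 6 and lower in 3 of 24. Among them Resp18 was at 1324, 1505, 1085 and 1127 CPM in other GABA neurons (1.26, SE 0.06, adjusted p = 7.06e-84), and Pcsk1n, an inhibitor of the convertase PC1, was 0.66 higher in Gal Th cells (SE 0.06, adjusted p = 5.92e-25).

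Hormone receptor genes were higher in 2 and lower in 4 of 17, against 4.38% and 5.99% of all genes tested. The estrogen receptor gene Esr1, chosen after its values were seen, was at 20.3, 43.8, 3.81 and 14.2 CPM against 11.9, 16.3, 8.27 and 7.99 CPM, lower in male 1 and higher in the others (1.05, SE 0.32, adjusted p = 0.0134). Without female 2 the Esr1 difference was 0.36 and the call was lost, as it was with DESeq2 and after thinning. It was also lost with at least 10 Gal or 2 Th UMIs required, with no library block and without cells of high Rrad and Gem. Prlr was at 70.4, 75.6, 68.0 and 73.5 CPM in other GABA neurons (0.69, SE 0.14, adjusted p = 5.9e-05), a call lost by thinning and with at least 2 Th UMIs required. Penk was at 893, 633, 1067 and 940 CPM there, above every Gal Th library (-1.61, SE 0.09, adjusted p = 5.33e-67; not called by DESeq2). The Penk difference, too, varied more between libraries than its SE shows.

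A few calls came from 1 library or from few cells. The cholinergic genes Slc18a3 and Slc5a7 were called higher than in other GABA neurons by 3.37 (SE 0.54, adjusted p = 3.16e-08) and 1.33 (SE 0.34, adjusted p = 0.00176). Their 20 and 40 UMIs lay in 2 and 5 cells, and female 2 held 26.6 and 49.1 CPM against 0 and at most 7.10 CPM in the other libraries. Without female 2 both calls were lost and the signs turned. Kiss1, the kisspeptin gene, was called higher by 4.81 (SE 0.66, adjusted p = 3.7e-11) on 17 UMIs in 4 cells of female 2 and male 1. C1ql2 was 2.23 higher (SE 0.26, adjusted p = 4.53e-15) and 1.18 without female 1, where it stood at 166 CPM. The heat shock gene Hspa1a ran from 19.0 CPM in male 1 to 1008 CPM in male 2 and lost its call without male 2 (0.29, adjusted p = 0.126).

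Gal Th cells also varied among themselves with the number of Th UMIs. The genes followed here were chosen after their values were seen, and levels are pooled over all libraries with 95% Poisson intervals that cover counting error only. Npy was at 28.5 CPM in galanin cells without Th, 67.7 CPM in cells with 1 Th UMI, 273 CPM with 2 to 4 and 1219 CPM with 5 or more. Cck followed the same order at 107, 236, 588 and 1622 CPM. For Nts the order was the opposite, at 904, 819, 230 and 96.9 CPM, and Pnoc fell likewise from 274 to 225, 136 and 64.0 CPM. Ddc was level across these groups, at 80.7, 61.1, 67.8 and 75.6 CPM. Slc18a2 stood at 24.4, 52.4, 113 and 91.1 CPM, and Galr1 at 6.70, 15.3, 28.8 and 85.3 CPM. Gal itself, used by the rule, was at 2133, 1919, 4532 and 8760 CPM.

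**Figure D3:**
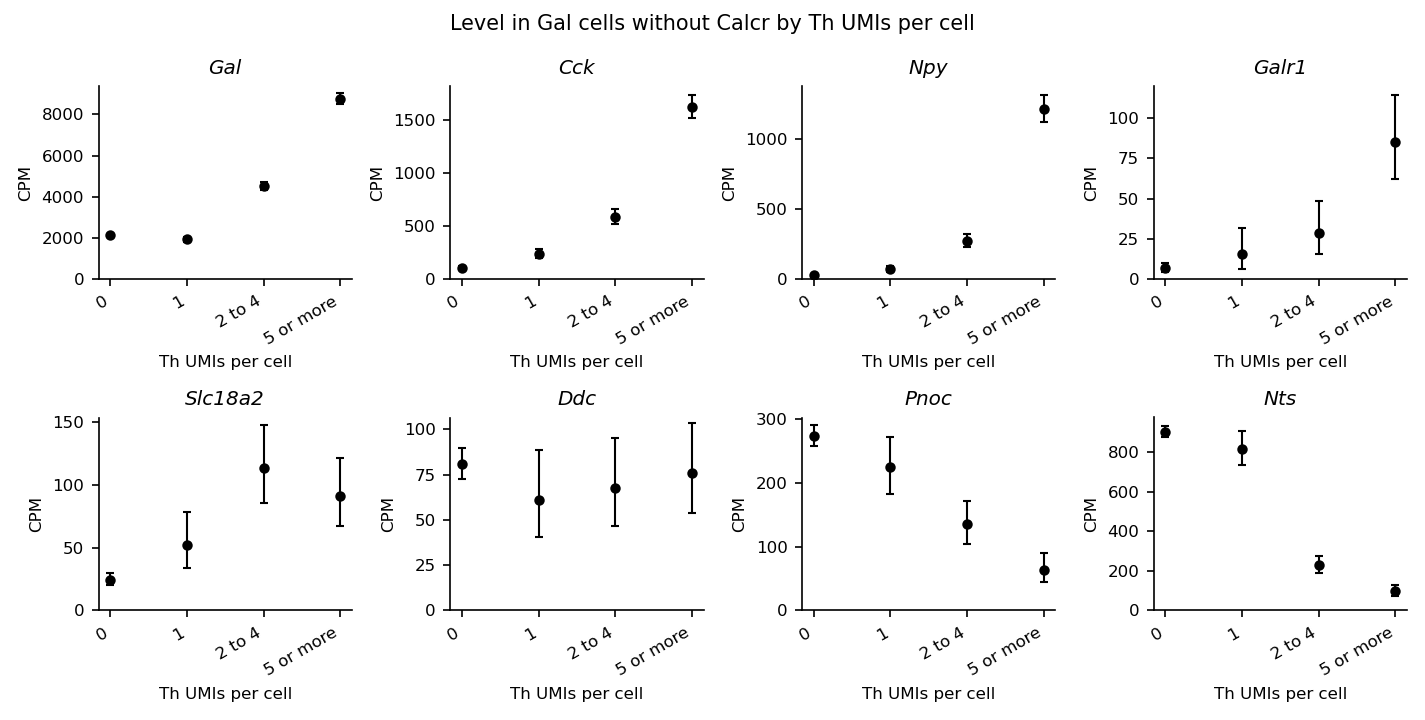
Level in CPM of Gal, Cck, Npy, Galr1, Slc18a2, Ddc, Pnoc and Nts in galanin cells without Th and in Gal Th cells with 1, 2 to 4 and 5 or more Th UMIs, with 95% Poisson intervals of the pooled UMIs. Npy and Cck rise from left to right to 1219 and 1622 CPM, while Nts falls from 904 to 96.9 CPM and Ddc stays between 61.1 and 80.7 CPM.

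The split by Th UMIs was also made within each of the 4 libraries, with 9, 19, 6 and 4 cells of 1 Th UMI and 18, 37, 21 and 8 cells of 2 or more. Npy was at 32.0, 94.6, 78.2 and 0 CPM in the former and at 745, 758, 709 and 936 CPM in the latter. Nts was at 1538, 662, 652 and 338 CPM in the former and at 412, 38.8, 267 and 0 CPM in the latter. Npy, Cck, Galr1, Adcyap1, Prok2, Slc18a2 and Hmx3 were higher with more Th in 4 of 4 libraries, and Nts and Zfhx3 were lower in 4 of 4. Pnoc was higher with more Th in female 1 and male 2 and lower in female 2 and male 1, so its pooled order did not hold in each library. No test was made, since cells of 1 library are not replicates.

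Single cells were sorted into 2 kinds by their peptide UMIs, at limits set on these same cells after the values were seen. The lack of overlap at these limits is thus a description and not a test. Cck and Npy together reached 10 or more UMIs in 34 of the 123 cells (27.6%), and Pnoc and Nts together reached 3 or more in 37. No cell met both, and 52 met neither. The highest sum of Pnoc and Nts among the 34 cells was 1 UMI, and the highest sum of Cck and Npy among the 37 cells was 4 UMIs. Near the limits, 8 cells had 5 to 14 UMIs of Cck and Npy and 14 had 2 to 4 of Pnoc and Nts. By any UMI the peptides did overlap, with Cck and Pnoc together in 16 cells, Npy and Pnoc in 14, Npy and Nts in 10 and Cck and Nts in 9. The Cck and Npy kind numbered 7, 16, 6 and 5 cells in female 1, female 2, male 1 and male 2. The Pnoc and Nts kind numbered 9, 19, 7 and 1 there, with 1 more in female 3. Their median depths were close, at 12351 and 12221 UMIs per cell.

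**Figure D4:**
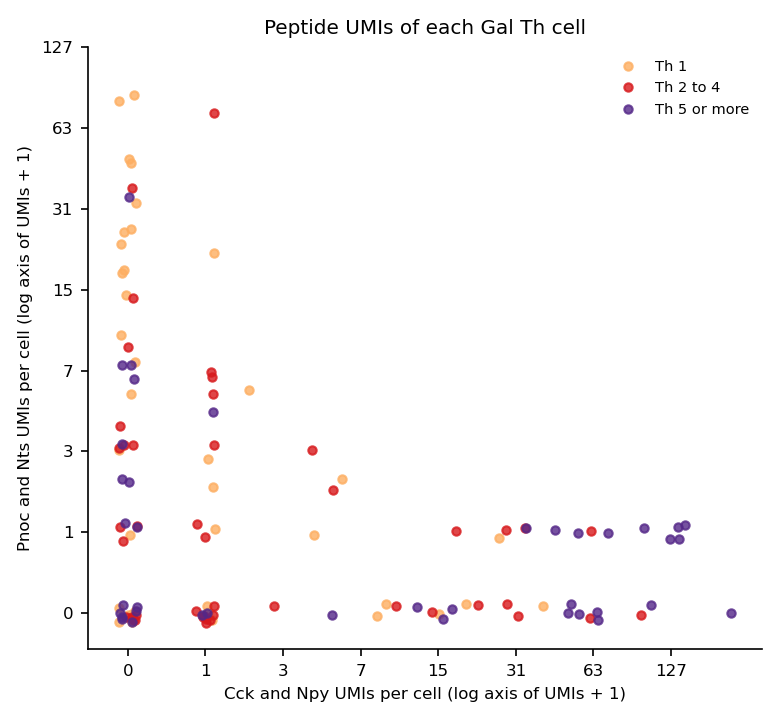
Summed Cck and Npy UMIs (horizontal) against summed Pnoc and Nts UMIs (vertical) in each of the 123 Gal Th cells, on logarithmic axes of UMIs plus 1, with small random offsets so that cells do not overlap and colour giving the cell's Th UMIs. Cells lie along the 2 axes, up to 204 UMIs of Cck and Npy and up to 82 of Pnoc and Nts, and none is high for both.

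Th and Gal differed between the kinds. The Cck and Npy cells had a median of 6 Th UMIs and 74.5 Gal UMIs, and 19 of the 34 had 5 or more Th UMIs. The Pnoc and Nts cells had a median of 2 Th UMIs and 17 Gal UMIs, and 18 of the 37 had a single Th UMI. Among galanin cells without Th, 18 of 389 (4.63%) reached 10 UMIs of Cck and Npy, and among galanin cells with Calcr 5 of 231 did (2.17%).

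Other genes, also chosen after their values were seen, followed the kinds. Their levels are pooled over the cells of all libraries and were not split by library. Adcyap1 was at 129 CPM in the Cck and Npy cells, 19.7 CPM in the Pnoc and Nts cells and 5.2 CPM in cells of neither kind. Prok2 was at 222, 6.56 and 92.0 CPM, Oprk1 at 239, 59.1 and 101 CPM, and Crabp1 at 143, 8.75 and 71.1 CPM. The reverse held for Zfhx3 at 23.4, 136 and 83.3 CPM and for the hypothalamic homeobox gene Nkx2-1 at 18.7, 101 and 59.0 CPM. The Nkx2-1 levels rest on 8, 46 and 34 UMIs. Nkx2-1 was found in 17.6%, 32.4% and 30.8% of the cells, which lie closer together than the levels. Penk was at 115, 578 and 219 CPM, but it was found in 44.1%, 45.9% and 46.2% of the cells, shares much closer to each other than the levels. Galr1 was at 60.9 CPM in the Cck and Npy cells and 60.7 CPM in cells of neither kind, but at 8.75 CPM in the Pnoc and Nts cells. Hmx2 at 84.3, 78.8 and 60.7 CPM and Pcbd1 at 234, 225 and 226 CPM differed little. Hmx2 and Nkx2-1 were found in 65 and 34 cells and together in 7.

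The share of Gal Th cells was set against sex over all 6 libraries. In females, Gal Th cells were 1.29% (27 of 2086), 1.34% (56 of 4182) and 1.54% (1 of 65) of GABA neurons. In males they were 0.888% (27 of 3041), 0.46% (12 of 2610) and 0 of 596, which allows a share of up to 0.503% by 3 counts and 0.617% by the exact 95% interval. Each female library lay above each male one, though female 3 rests on a single cell, with an exact 95% interval of 0.0389 to 8.28%. The means were 1.39% ± 0.13 (SD, n = 3) and 0.449% ± 0.444 (SD, n = 3), a difference of 0.941 percentage points with an exact two-sided permutation p of 0.1, the smallest that 3 against 3 libraries allow.

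Depth differed between the libraries. Median UMIs per GABA neuron were 8440, 8590.5 and 4893 in the female and 6050, 6816.5 and 4909.5 in the male libraries. Per barcode of any kind they were 5797, 6689 and 2332 in the female and 4946, 5506 and 3561 in the male libraries. After thinning to 3000 UMIs the share difference was 0.132 points (exact permutation p = 0.7). With at least 2 Th UMIs required it was 0.25 points (exact permutation p = 0.6). Female 3 held no Gal Th cell in either setting (0 of 51 and 0 of 65) and lowered the female mean. After thinning, female 1 and 2 stood at 0.6148% and 0.9498% of GABA neurons, and male 1, 2 and 3 at 0.4922%, 0.4542% and 0.2227%. With at least 2 Th UMIs they stood at 0.8629% and 0.8847% against 0.6906%, 0.3065% and 0%. Female 1 and 2 thus lay above every male library in both settings. Of galanin cells without Calcr, 29.0%, 26.0% and 100% (1 of 1) carried Th in females and 22.3%, 17.9% and 0% (0 of 15) in males. That difference of 38.3 points (exact permutation p = 0.1) was 14.1 points without female 3 (exact permutation p = 0.2), 2.42 points with at least 2 Th UMIs required (exact permutation p = 0.8) and 2.54 points after thinning (exact permutation p = 0.9). Thinned, female 1 and 2 stood at 16.9% and 24.7% and male 1, 2 and 3 at 18.6%, 26.2% and 10.0%, so male 2 lay above both female libraries, and female 3 had no such cell.

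**Figure D5:**
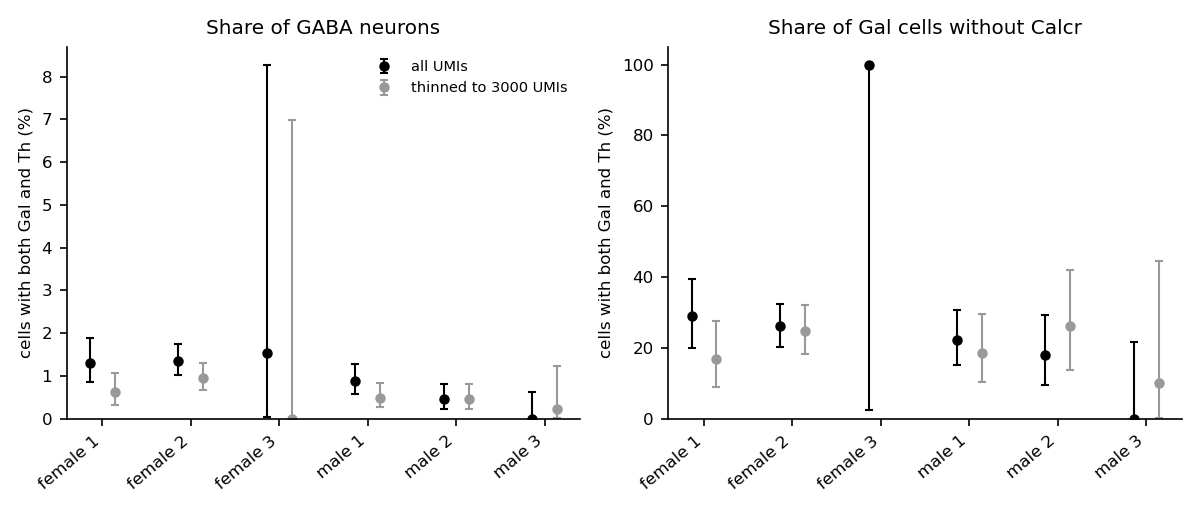
Gal Th cells as a percentage of GABA neurons (left) and of galanin cells without Calcr (right) in each library, from all UMIs (black) and after thinning cells to 3000 UMIs (grey), with exact 95% binomial intervals that cover counting error only. From all UMIs the female libraries lie at 1.29 to 1.54% of GABA neurons and the male ones at 0 to 0.888%. Thinning applies the limits on Gal, Th and Calcr again, so a cell can enter by losing a Calcr UMI. Female 3 has no grey point on the right.

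Within Gal Th cells, female and male pools were compared over 2 libraries of each sex. Of 4973 genes tested 7 were called (0.141%), 3 higher in females (0.0603%) and 4 lower (0.0804%), and 217 had an unadjusted p under 0.05. The sex chromosome genes followed the labels, with Xist at 644 and 612 CPM in females and no UMI in males, and Ddx3y at 126 and 85.1 CPM and Eif2s3y at 118 and 71.0 CPM in males and no UMI in females. Trh, the precursor of thyrotropin-releasing hormone, had 135 UMIs in females and 2 in males, a 26.0-fold higher level with a 95% counting interval of 7.06 to 217 (adjusted p = 0.0138). The 5 cells with the most held 65.0% of the Trh UMIs, and without male 1 no male UMI of Trh remained. Lmo1, a LIM domain factor gene, had 59 UMIs in females and 1 in males, a 22.7-fold higher level with an interval of 3.92 to 912 (adjusted p = 0.0436), and its call was lost without female 1, female 2 or male 1.

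The myelin genes Mbp, at 200 and 190 CPM in females against 757 and 319 CPM in males, and Mobp, at 33.9 and 43.8 against 164 and 114 CPM, were lower in females (adjusted p = 0.0338 and 0.0265). Both calls were lost without male 1. The summed oligodendrocyte markers stood at 597 and 620 CPM in the female and 1595 and 859 CPM in the male cells. They stood at 869 and 775 against 1566 and 1059 CPM in galanin cells without Th. Of the dopamine genes, 8 were tested between the sexes and none was called, where 0.141% of all genes were. Galr1 was at 44.1 and 39.8 CPM in females and 57.1 and 49.7 CPM in males (log2 difference -0.37, SE 0.41, adjusted p = 0.999).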

How the data were processed

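UMI counts per gene and barcode were deposited by the authors as 1 matrix of 6 libraries, with barcode suffixes tying each cell to its library per the labels. Cell Ranger 2.0.0 and the mm10 build are named in the submitters' processing notes. From the deposited counts, populations were taken by the rule above, and UMIs were summed per library and population. edgeR 4.0.16 (quasi-likelihood test, TMM scaling, default filter on low counts, library as block, none between sexes) gave log2 differences, and Benjamini-Hochberg adjusted p over all genes tested. The 12 genes the rule reads and 13 mitochondrial genes were not tested. A standard error (SE) is the log2 difference over the square root of F. Analyses were checked on simulated counts. Doublets were called per library with scanpy 1.11.5. Shares were compared by exact permutation over libraries.

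The Gal Th cells, the reference populations and the gene lists were chosen with earlier results of these data known. Genes named were up to 10 per direction with the largest change among called genes of 1 sign in every library and a mean of at least 20 CPM, the dopamine and opioid lists, and up to 3 of smallest p per other list. Not all of these are printed. For sex, called genes, tested X- and Y-linked genes and the gene of smallest p per list were taken. Alternatives were DESeq2 1.42.0, other filters, references and limits, no block, thinning, doublets left out and each library left out. Leaving out cells of high Rrad and Gem was chosen after seeing the data. Promoters came from RefSeq (GRCm38.p6) and gene coordinates from GENCODE for GRCm38. Some genes tested are not reported here.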

Additional observations from a re-analysis of the deposited data

Results flagged for a closer look

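Of 216 groups of 4 libraries looked at, 16 held a library far from the others, 7 of them in Gal Th cells; chance gives about 1 in 20 such groups. In Gal Th cells, female 2 stood high for Slc18a2 (102.2 CPM against 67.81 to 72.32 in the others), Gem (88.94 against 19.03 to 28.38), Slc18a3 (26.55 against 0) and Slc5a7 (49.12 against 0 to 7.096). Male 2 stood high for Meis2 (205.8 against 2.655 to 22.84) and low for Scg2 (1958 against 2796 to 2963), and female 1 stood high for C1ql2 (166.1 against 7.096 to 26.65).

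Among galanin cells without Th, male 1 was high for Adcyap1 (21.13 CPM against 5.647 to 7.266) and male 2 for Slc10a4 (10.9 against 2.872 to 3.594), while male 2 was low for Nts (746.6 against 934.3 to 939.1). In Th cells without galanin, female 2 was high for Hmx3 (4.434 against 0) and Pcbd1 (159.6 against 67.9 to 82.19) and low for Adora2a (16.85 against 44.05 to 45.21), and male 2 was high for Htr2c (140.6 against 88.8 to 94.52). In other GABA neurons, male 2 was high for Crabp1 (10.48 against 6.022 to 6.764) and female 2 for Kiss1 (0.7772 against 0.06145 to 0.1059).

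For Pdyn in 1 comparison and Ddc in another, both female libraries differed from their reference in 1 direction and both male libraries in the opposite one. Pdyn in Gal Th cells minus other GABA neurons was 52.86 and 4.154 CPM in females 1 and 2 and -51.34 and -0.7284 CPM in males 1 and 2. Ddc in Gal Th cells minus Th cells without galanin was -8.114 and -50.26 CPM in females and 21.06 and 12.71 CPM in males. Neither difference between the sexes was tested.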

How the results depend on the processing

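Counts of called genes moved with the tool, the depth and the libraries. Against galanin cells without Th, 261 genes became 66 with DESeq2, 114 with no library block, 57 after thinning to 3000 UMIs, and 123 to 221 with a library left out (123 without female 2). Against other GABA neurons, 1424 became 767 with DESeq2, 430 after thinning (115 higher, 315 lower) and 857 to 1248 with a library left out (857 without female 2). Against Th cells without galanin, 554 became 178 with DESeq2, 224 after thinning, 362 with at least 20 cells per library, and 340 to 438 with a library left out (340 without female 1, 362 without male 2). Between the sexes, 7 became 4 with DESeq2 or without doublets, 15 with at least 1 cell, 35 with at least 20, 26 with no filter on low counts, 1 after thinning, and 13 to 35 with a library left out (13 without female 2, 19 without male 1, 20 without female 1, 35 without male 2). Replicate numbers do not pair the sexes in the labels; used as a replicate block they gave 28 genes, and deviations of same-numbered samples correlated at 0.152 over 4992 genes. For the shares the same block left the smallest possible exact p at 0.25. With a library left out, the share difference was 0.717 to 1.16 points and that of galanin cells with Th 14.1 to 51.1 points. Signs turned for Ddc against galanin cells without Th with Gal of at least 10 (0.18) and against Th cells without galanin without female 2 (0.16), for Penk against galanin cells without Th with Th of at least 2 (-0.0793) and thinned (-0.0007), and for Galr1 between the sexes without cells of high Rrad and Gem (0.0023). Against other GABA neurons they turned for Pdyn with no block (-0.0235), thinned (-0.11) and without female 1 (-0.35; 0.51 without male 1), for Slc18a3 with Gal of at least 10 (-6.75) and without female 2 (-6.69), and for Slc5a7 likewise (-2.52 and -1.01). Over libraries left out, Slc18a3 there ran from -6.69 to 3.87, Slc5a7 from -1.01 to 1.66, and Ddc against Th cells without galanin from -0.45 to 0.16. The cause was not tested. Of the named genes followed through every alternative, 21 of 37 called against galanin cells without Th, 36 of 51 against other GABA neurons, 24 of 36 against Th cells without galanin and 4 of 7 between the sexes kept their call in each fit that tested them. With 12 cells in male 2 and 123 in all, levels of a few CPM in Gal Th cells rest on single UMIs, which limits the precision of differences there.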
